A study of Mus musculus with 6 samples.

Results

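Plasminogen activators and the proteins that bind or inhibit them were followed in mouse hearts through 4 genes: Serpine2, Plat, Plau and Plaur. The members were chosen by gene name, as 4 of the 55401 genes in the deposited table, and each name matched a single row. Poly(A) RNA was sequenced from hearts of C57BL/6 mice aged 6 to 8 weeks, 3 untreated controls and 3 given angiotensin II (Ang II), a peptide hormone that constricts vessels and is used in mice to raise blood pressure and enlarge the heart. Each library came from a different heart. The labels give no dose, route or duration for Ang II and no sex, and the tissue is whole heart, so fewer cells of a type and less RNA per cell cannot be told apart in any value below. The series title concerns corynoline, but every library in the deposited table is from one of these control or Ang II hearts, and none is labelled as corynoline-treated.

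The plasminogen system is a protease cascade at the cell surface and in the matrix. Plat encodes tissue plasminogen activator and Plau urokinase, the serine proteases that cut plasminogen into plasmin, and plasmin dissolves fibrin, degrades matrix proteins and activates other proteases. Plaur encodes the urokinase receptor, which is anchored to the membrane by a lipid and holds urokinase at the cell surface. Serpine2 encodes protease nexin-1, a serpin that traps thrombin, urokinase, tissue plasminogen activator and plasmin. In the heart the system is studied for its part in clot removal, matrix turnover and fibrosis.

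None of the 4 genes changed detectably with Ang II. Tested with edgeR's quasi-likelihood test and Benjamini-Hochberg adjustment over all 16759 genes that passed a filter on low counts, 0 of the 4 had an adjusted p under 0.05, and 0 of the 4 reached an unadjusted p under 0.05. Across all genes tested, 6 passed the adjusted threshold, a share of 0.0358%, and 1258 (7.51%) had an unadjusted p under 0.05. All 4 members passed the filter. DESeq2, run on the same counts, also called 0 of the 4, against 1.65% of all genes. Serpine2 had the largest difference of the 4 relative to its error, lower with Ang II. On counts scaled for library size and composition, it was the only member whose groups did not overlap. Of all genes tested, 17.2% had no overlap on that scale, 9.21% with Ang II lower. On the authors' length-scaled values the Serpine2 groups did overlap.

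Each library held between 51202916 and 63564869 estimated counts. Mitochondrially encoded genes made up 35.8% to 47.6%, with the highest share in control replicate 1. Values are given as CPM (edgeR's counts scaled for library size and composition), and as the authors' FPKM (fragments scaled for transcript length and library size) where genes are compared with each other. Ang II replicate 1 stood apart: its correlation with the other libraries over the tested genes on the log2 scale was 0.931 to 0.941, against 0.969 to 0.983 among the other 5. All 6 cardiomyocyte markers were present, with a summed level of 34762 to 45385 CPM. Without Ang II replicate 1, edgeR called 129 of 17661 genes (0.73%), and 0 of the 4 members.

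The 4 transcripts were present at low to moderate levels. On the FPKM scale, which is per length, the mean over all 6 hearts was 1.81 ± 0.555 for Plat, 1.68 ± 0.383 for Serpine2, 1.34 ± 0.412 for Plau and 0.968 ± 0.195 for Plaur (SD, n = 6). By mean FPKM they ranked 7109th, 7421st, 8309th and 9541st of the 16759 genes tested. Plat exceeded Serpine2 in 4 of 6 libraries, so these neighbours in the order did not differ beyond their spread. Serpine2 exceeded Plau in 6 of 6 libraries and Plau exceeded Plaur in 5 of 6, the exception being Ang II replicate 1.

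Serpine2 (ENSMUSG00000026249, GRCm38 chromosome 1, 79794197 to 79858696, minus strand) is the inhibitor of the set. Its level was 17.2, 15.5 and 18.0 CPM in control replicates 1, 2 and 3. In Ang II replicates 1, 2 and 3 it was 10.7, 15.0 and 13.6 CPM. The lowest control heart thus lay just above the highest Ang II heart, by less than the SD of either group, and Ang II replicate 1 was the lowest of the 6. Group means were 16.9 ± 1.27 and 13.1 ± 2.17 CPM (SD, n = 3, control first). The difference was -0.37 on the log2 scale (SE 0.17; 95% interval -0.78 to 0.05; edgeR adjusted p = 0.692). An exact two-sided permutation test on the CPM values gave p = 0.1, the smallest that 3 hearts against 3 allow. Any gene whose groups do not overlap gives that value, so the test adds nothing to the lack of overlap. Groups that did not overlap were common, at 17.2% of all genes tested, and 9.21% had all Ang II hearts lower. On the FPKM scale the Serpine2 groups did overlap, because control replicate 1 stood at 1.52 FPKM and Ang II replicates 2 and 3 at 1.83 and 1.70 FPKM. FPKM lacks the scaling for composition that CPM has. Control replicate 1 had the lowest factor of that scaling (0.795) and the highest mitochondrial share (47.6%). The part of composition in the overlap was not tested. Without Ang II replicate 1 the log2 change was -0.24 (SE 0.11), and edgeR's adjusted p was 0.394.

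Plat (ENSMUSG00000031538, chromosome 8, 22757727 to 22782844, plus strand) encodes tissue plasminogen activator, which works mainly on fibrin and is released by endothelium. Control replicates 1, 2 and 3 had 10.5, 14.7 and 12.6 CPM. Ang II replicates 1, 2 and 3 had 8.53, 13.1 and 12.5 CPM. The groups overlapped, and in each group the library numbered 1 was the lowest. Means were 12.6 ± 2.12 CPM and 11.4 ± 2.50 CPM (SD, n = 3), a log2 change of -0.14 (SE 0.22; 95% interval -0.68 to 0.39; edgeR adjusted p = 0.893). The sign turned when Ang II replicate 1 was left out, to 0.03 (SE 0.16).

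Plau (ENSMUSG00000021822, chromosome 14, 20836660 to 20843385, plus strand) encodes urokinase, the activator that works on cell surfaces and in the matrix. Its level was 3.15, 3.51 and 3.60 CPM in control replicates 1, 2 and 3. In Ang II replicates 1, 2 and 3 it was 2.12, 4.04 and 3.74 CPM. Ang II replicates 2 and 3 were thus the highest of the 6 and Ang II replicate 1 the lowest, so the Ang II group spanned the control group from below to above. Means were 3.42 ± 0.238 and 3.30 ± 1.03 CPM (SD, n = 3, control first). The log2 change was -0.05 (SE 0.28; 95% interval -0.72 to 0.62; edgeR adjusted p = 0.968), and 0.19 (SE 0.16; adjusted p = 0.665) without Ang II replicate 1.

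Plaur (ENSMUSG00000046223, chromosome 7, 24462484 to 24475968, plus strand), the urokinase receptor gene, ran the other way in Ang II replicate 1. Control replicates 1, 2 and 3 had 3.46, 1.64 and 2.80 CPM. Ang II replicates 1, 2 and 3 had 4.23, 2.69 and 2.36 CPM. Ang II replicate 1 was the highest of the 6 and control replicate 2 the lowest, with the other 4 between them. Among those 4, both control hearts lay above both Ang II hearts. Means were 2.63 ± 0.922 CPM and 3.09 ± 0.999 CPM (SD, n = 3). The log2 change was 0.23 (SE 0.36; 95% interval -0.63 to 1.09; edgeR adjusted p = 0.891). It was -0.02 without control replicate 2 and -0.05 without Ang II replicate 1, so its sign rested on those libraries. Plaur had 109 to 189 counts a library, the smallest numbers with those of Plau (92 to 284), against 371 to 979 for Plat and 466 to 1052 for Serpine2.

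**Figure D1:**
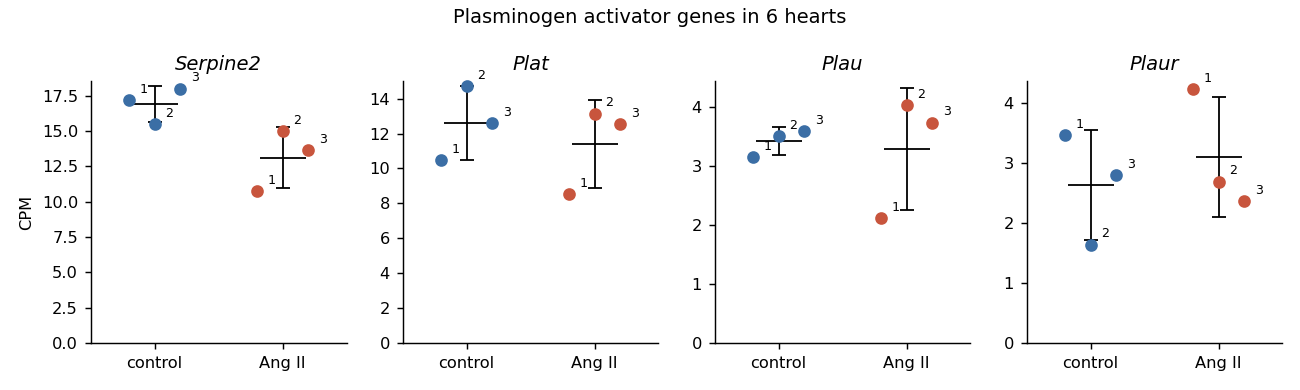
CPM of Serpine2, Plat, Plau and Plaur in each heart, with control hearts in blue and Ang II hearts in red. Points are libraries labelled by replicate number, horizontal lines are means and bars are SD (n = 3). Serpine2 alone has groups that do not overlap on this scale, as 17.2% of all genes tested do not, and its groups overlap in FPKM. Ang II replicate 1 is the lowest library for Serpine2, Plat and Plau and the highest for Plaur.

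The stretches just upstream of Serpine2 and Plaur are shown so that the inhibitor and the receptor gene, the members with a matched promoter entry, can be set side by side. They are RefSeq promoter windows on GRCm38.p6, each of 219 bases, from 250 to 32 bases before the start that RefSeq gives. For Serpine2 that start lies inside the gene span printed above. Promoter entries were matched for 2 of the 4 members, and Plat and Plau were not matched. Capitals mark matches, on either strand, to the GC box GGGCGG or the AP-1 site TGACTCA.
Serpine2, chr1:79858697-79858915, minus strand: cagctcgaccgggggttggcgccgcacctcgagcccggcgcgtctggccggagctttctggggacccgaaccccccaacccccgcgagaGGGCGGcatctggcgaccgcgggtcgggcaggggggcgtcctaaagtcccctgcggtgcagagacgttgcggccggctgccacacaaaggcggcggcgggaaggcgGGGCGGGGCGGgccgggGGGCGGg
Plaur, chr7:24462233-24462451, plus strand: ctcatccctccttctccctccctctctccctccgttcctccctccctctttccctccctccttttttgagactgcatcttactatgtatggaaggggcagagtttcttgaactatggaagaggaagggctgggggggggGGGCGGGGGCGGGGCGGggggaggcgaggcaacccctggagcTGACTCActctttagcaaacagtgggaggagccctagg
The Serpine2 window had a GC content of 77.6% and held 4 GC boxes. The Plaur window had a GC content of 60.7% and held 3 GC boxes and 1 AP-1 site, which begins 69 bases before the RefSeq start. Of 32851 promoter windows of the same length, 28.3% held a GC box and 3.98% an AP-1 site. Neither window held the cAMP response element TGACGTCA (1.13% of windows) or the TATA box TATAAA (9.92%). The windows stop 32 bases before the RefSeq start, so a TATA box nearer the start could not be seen. Its absence from these windows therefore does not show that either promoter lacks one. These are matches of letters and not shown to be sites.

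The balance of inhibitor and activators within a heart was described by ratios of FPKM, with no test. The Serpine2 to Plat ratio was 1.24, 0.793 and 1.08 in control replicates 1, 2 and 3 and 0.946, 0.856 and 0.819 in Ang II replicates 1, 2 and 3. The inhibitor's transcript thus lay above the activator's in 2 of 3 control hearts and below it in all 3 Ang II hearts, although the Ang II values lie within the control range. The Serpine2 to Plau ratio was 1.55, 1.27 and 1.43 in control and 1.45, 1.06 and 1.04 in Ang II hearts. For this ratio Ang II replicates 2 and 3 lay below every control heart and Ang II replicate 1 lay inside the control range. The Plaur to Plau ratio, receptor over its ligand, was 0.974, 0.418 and 0.697 in control hearts and 0.596 and 0.561 in Ang II replicates 2 and 3. In Ang II replicate 1 it was 1.82, the highest of the 6.

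In Ang II replicate 1 the marker sums of several cell types were the lowest or highest of the 6 libraries, as the members were. The smooth muscle and pericyte sum (469 CPM) and the activated fibroblast sum (12.1 CPM) were lowest there. The platelet and megakaryocyte sum (19.9 CPM) was highest. The cardiomyocyte sum (35256 CPM) lay within the control range, with 4 of 6 markers at their lowest and 2 at their highest. The summed level of 6 fibroblast markers lay between 433 and 459 CPM in the controls. It was 486 and 469 CPM for Ang II replicates 2 and 3. In Ang II replicate 1 it was 197 CPM, where Serpine2, Plat and Plau were lowest. Decorin (Dcn) made most of that gap, at 69.2 CPM in Ang II replicate 1 and 279 to 327 CPM in the other 5. The 9 macrophage and monocyte markers summed to 411 CPM in Ang II replicate 1, where Plaur was highest, and to 189 to 265 CPM in the other 5. Of the 9 markers, 5 were at their highest of the 6 libraries there: Lyz2 (172 CPM), C1qa (86.9), C1qb (81.1), Csf1r (36.9) and Ly6c2 (6.83). Most of the excess came from Lyz2, C1qa and C1qb. The other 4 lay below their control means there: Adgre1 at 4.83 CPM against 6.08, Cd68 at 6.49 against 7.34, Mrc1 at 13.9 against 14.6 and Ccr2 at 1.73 against 2.07. Relative to the control mean, Ang II replicate 1 stood at 63.4% for Serpine2, 67.8% for Plat, 61.9% for Plau, 161% for Plaur, 43.9% for the fibroblast sum and 162% for the macrophage sum. Endothelial markers summed to 572 to 621 CPM among controls and to 422 to 440 CPM with Ang II, with groups that did not overlap and 5 of 6 markers apart. Among all single genes tested, 17.2% had groups that did not overlap, and 9.21% had all Ang II hearts lower. Of the 16 marker lists, 5 had sums that did not overlap between the groups, each lower with Ang II. The other 4 were the red cell sum (802 to 2039 CPM among controls, 444 to 593 with Ang II), the Schwann and nerve sum (6.77 to 7.11 and 3.88 to 5.003), the adipocyte sum (1.95 to 2.94 and 0 to 0.882) and the mast cell sum (6.59 to 7.40 and 5.65 to 6.52). The 5 neutrophil markers summed to 4.24 to 12.7 CPM among controls and to 2.94 to 4.81 CPM with Ang II. Their sum was lowest of the 6 in Ang II replicate 1 (2.94 CPM), where Plaur and the macrophage and monocyte sum were highest. The part of any of these cell types in the members' values was not tested.

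**Figure D2:**
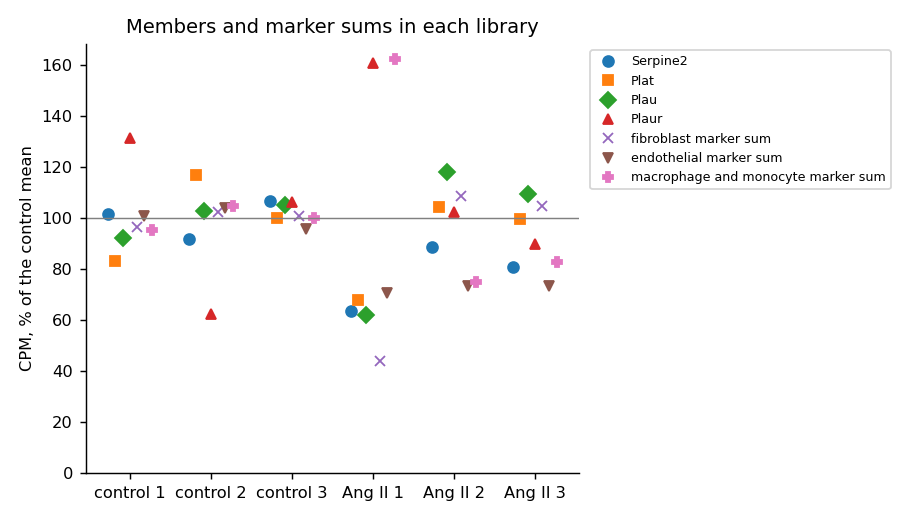
Level of each member and of 3 marker sums in each library, as a percentage of the control mean of the same item (CPM scale; the grey line is 100%). In Ang II replicate 1, Plaur and the macrophage and monocyte sum stand near 160%, the sum mostly through Lyz2, C1qa and C1qb and not through all 9 markers, whereas Serpine2, Plat, Plau and the fibroblast sum stand at or below 67.8%.

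Genes with the most similar pattern were sought for each member by the Pearson correlation of log2(FPKM + 0.5) over the 6 libraries, among 6105 genes with a mean FPKM of at least 2. Serpine2 was closest to Mib2 (r = 0.999), Sema7a (0.997) and Zscan21 (0.995). Plat was closest to Cstf2t (0.997), Anapc2 (0.996) and Pgm5 (0.996). Plau was closest to Rnf146, Prpf31 and Chmp4b (each 0.998). Such closeness was common: 639 genes reached an r above 0.9 with Serpine2, 1347 with Plat and 1467 with Plau. The points share each library's scaling, and control replicate 1 and Ang II replicate 1 were the 2 lowest for all 9 of these genes. Plaur was different, with 18 genes above 0.9, led by Rps27a-ps2 (0.986), a ribosomal pseudogene that can share reads with its parent gene, Ccdc85b (0.978) and the glutathione peroxidase gene Gpx1 (0.971). These 3 peaked in Ang II replicate 1 and were lowest in control replicate 2, as Plaur was. Gpx1, for example, stood at 66.7 FPKM in Ang II replicate 1, at 10.8 FPKM in control replicate 2 and at 30.2 to 37.8 FPKM in the other 4. On log2(CPM + 0.5), tried after the data were seen, the closest genes were different in every case: Prkd2, Impact and Hsd11b1 for Serpine2, Hsp90ab1, Fgfr1op2 and Gigyf1 for Plat, Tmem182, Kremen1 and Lrpprc for Plau, and Idnk, AI837181 and Nop53 for Plaur.

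The wider plasminogen list held 64 genes around the members: plasminogen and its receptors, other inhibitors, clearance receptors, partners of the urokinase receptor, substrates and coagulation genes. Of 51 tested, edgeR called 0. An unadjusted p under 0.05 was reached by 2 with a higher and 6 with a lower level, where the shares over all genes tested were 3.57% and 3.94%. The median log2 change was -0.085 over the 51 and 0.01 over all genes tested. DESeq2 called 0 higher and 4 lower (Vwf, A2m, Pzp and Fpr1), where it called 0.698% of all genes lower. Without Ang II replicate 1, edgeR called 0 of 59 tested.

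Surface receptors of plasminogen showed no shared direction. Plgrkt, a membrane receptor that binds plasminogen, had means of 18.1 ± 0.850 and 16.8 ± 0.405 CPM (SD, n = 3, control first), with a log2 change of -0.11 (SE 0.13). Annexin A2 (Anxa2) and its partner S100a10 form a complex that binds plasminogen and tissue plasminogen activator. S100a10 was 36.5, 26.9 and 34.4 CPM in control replicates 1, 2 and 3. With Ang II it was 138 CPM in replicate 1 and 33.1 and 38.3 CPM in the other two. Its log2 change of 1.10 (SE 0.55; edgeR adjusted p = 0.699) was 0.13 without that library. Anxa2 was 131 CPM in Ang II replicate 1 and 63.7 to 76.6 CPM in the other 5. Both partners of the complex were thus highest in the heart where Plaur was highest and Plat was lowest.

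Plasminogen itself was found in 2 hearts only, both controls. Plg had 115, 0 and 50 counts in control replicates 1, 2 and 3. It had 0 in each Ang II library and was not tested. The fibrinogen chain gene Fgb had 277, 0 and 135 counts among controls and 0 in each Ang II library. The genes Fga and Fgg (other fibrinogen chains), F2 (prothrombin) and Cpb2 (a carboxypeptidase that slows fibrinolysis) had at least 14 counts in control replicates 1 and 3 and at most 4 in any other library. These proteins are made mainly by the liver. The 4 liver markers fixed for the purpose (Alb, Apoa1, Ttr and Serpina1c) summed to 85.1 CPM in control replicate 1 and 39.6 CPM in control replicate 3, and to 0.242 to 0.897 CPM in the other 4 libraries. Albumin (Alb) alone was 44.0 and 21.0 CPM in those 2 hearts and at most 0.590 CPM in the other 4. The part of liver transcripts in the values of Plg, the fibrinogen genes and F2 was not tested. Serpinc1, the antithrombin gene, did not follow them, with 88, 0 and 230 counts among controls and 7, 4 and 374 with Ang II (replicates 1, 2 and 3 in turn).

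**Figure D3:**
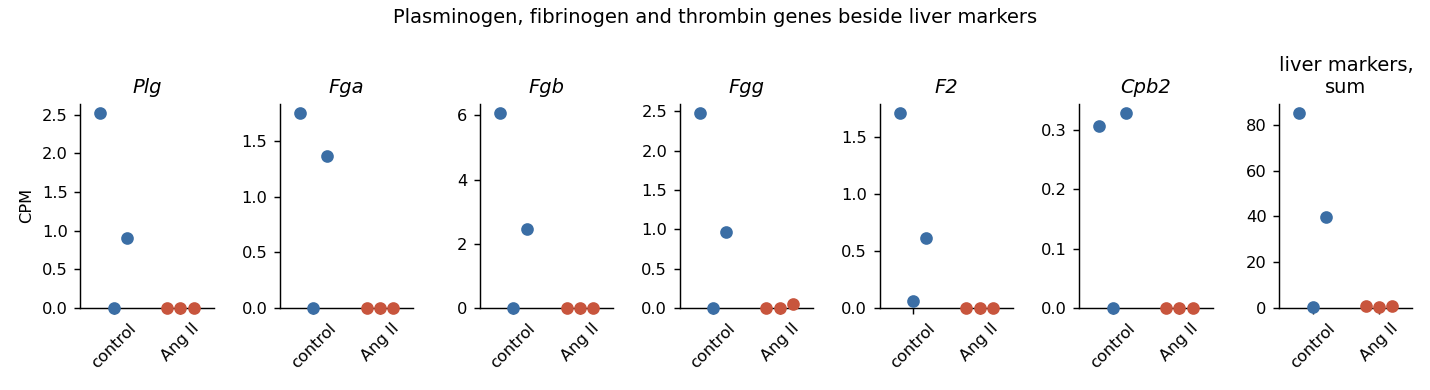
CPM of Plg, Fga, Fgb, Fgg, F2 and Cpb2 and of the sum of 4 liver markers in each library (points; control blue, Ang II red, replicates 1 to 3 from left to right). Control replicates 1 and 3 hold nearly all of the signal, and control replicate 2 and the 3 Ang II libraries lie at or near 0.

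Among the other inhibitors, Serpini1, the neuroserpin gene whose product inhibits tissue plasminogen activator, stood at 5.45, 6.58 and 6.22 CPM in control replicates 1, 2 and 3. In Ang II replicates 1, 2 and 3 it stood at 3.89, 9.91 and 8.47 CPM. It thus lay above every control heart in 2 Ang II hearts and below every control heart in Ang II replicate 1, the same arrangement as Plau (log2 change 0.29, SE 0.34; edgeR adjusted p = 0.851). The broad protease trap gene A2m had 22, 22 and 38 counts among controls and 4, 4 and 7 with Ang II. It was lower by edgeR's estimate of -2.58 on the log2 scale (SE 0.62; adjusted p = 0.447 by edgeR and 0.0208 by DESeq2). Pzp, a relative of A2m, had 206, 26 and 150 counts among controls and 4, 33 and 15 with Ang II, high in the 2 control hearts with liver markers and overlapping between groups (adjusted p = 0.523 by edgeR and 0.024 by DESeq2). Serpinb2, another inhibitor of urokinase, had 0 to 12 counts a library, and Serpina5 had 0 counts in all 6.

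Endocytic receptors that clear complexes of protease and inhibitor had 0 of 7 tested members at an unadjusted p under 0.05. Lrp1, the main receptor for complexes of serpins with activators, had means of 83.0 ± 9.25 and 78.3 ± 2.15 CPM (SD, n = 3, control first; log2 change -0.09, SE 0.14). Vldlr, its relative, was 129, 132 and 63.4 CPM among controls and 116, 155 and 143 CPM with Ang II, with control replicate 3 the lowest of the 6 (log2 change 0.35, SE 0.30).

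Partners of the urokinase receptor had 10 members tested, of which 1 was higher and 1 lower by an unadjusted p under 0.05. The higher one was Itga5, the α5 subunit of the fibronectin receptor, at 33.5, 42.0 and 40.9 CPM among controls and 42.8, 64.0 and 63.3 CPM with Ang II. All 3 Ang II hearts lay above the controls, the first of them narrowly. Its log2 change was 0.55 (SE 0.20; edgeR adjusted p = 0.608), and 0.72 (SE 0.12; adjusted p = 0.0808) without Ang II replicate 1. Itgav, the subunit of vitronectin receptors, was 5.60 ± 0.439 and 7.75 ± 2.21 CPM (SD, n = 3; log2 change 0.47, SE 0.23; edgeR adjusted p = 0.697), also without overlap. Its Ang II replicates 1, 2 and 3 had 10.3, 6.76 and 6.20 CPM, and the log2 change was 0.21 (SE 0.14; adjusted p = 0.553) without the first of them. Itgb1, the β1 subunit that pairs with α5, was 17.7 CPM in Ang II replicate 1 and 61.2 to 85.0 CPM in the other 5. The lower one was Fpr1, a formyl peptide receptor of neutrophils, with 18, 15 and 15 counts among controls and 0 in each Ang II library. Against a floor of 3 counts per library it was at least 5.8-fold lower in the Ang II libraries, with an edgeR adjusted p of 0.365.

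Substrates of plasmin or of the activators had 10 members tested, again with 1 higher and 1 lower by that measure. Mmp3, the stromelysin whose proenzyme plasmin can activate, was 1.75, 2.34 and 1.87 CPM among controls and 2.41, 3.97 and 3.01 CPM with Ang II. Its groups did not overlap, by a small margin at Ang II replicate 1 (log2 change 0.65, SE 0.27; edgeR adjusted p = 0.658). Pdgfc, a growth factor released from its latent form by proteases, had means of 1.13 ± 0.0841 and 0.633 ± 0.0938 CPM (SD, n = 3, control first; log2 change -0.83, SE 0.30; edgeR adjusted p = 0.599). Mmp2, a gelatinase, stood at 32.7 ± 2.99 and 37.4 ± 3.82 CPM (SD, n = 3), with a log2 change of 0.19 (SE 0.15).

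Coagulation genes had 16 members tested, of which 0 were higher and 2 lower by an unadjusted p under 0.05, and 13 of the 16 log2 changes were below 0, where 8222 of all 16759 (49.1%) were. The lower ones were Serpind1, a thrombin inhibitor made by the liver (64, 19 and 33 counts among controls, and 0, 0 and 8 with Ang II), and Vwf, the von Willebrand factor of endothelium. Vwf is also one of the endothelial markers, whose sum was lower in all Ang II hearts. It stood at 57.3, 50.9 and 53.4 CPM among controls and at 32.0, 38.4 and 36.8 CPM with Ang II, with no overlap (log2 change -0.59, SE 0.14; adjusted p = 0.42 by edgeR and 0.0145 by DESeq2). Thbd, the endothelial thrombin receptor that starts the protein C pathway, was 45.4 ± 2.91 and 40.5 ± 0.642 CPM (SD, n = 3; log2 change -0.16, SE 0.13). F3 (tissue factor) was 8.45 ± 1.23 and 7.80 ± 2.48 CPM (log2 change -0.11, SE 0.27), and F2r, the main receptor that thrombin cuts, was 15.5 ± 1.93 and 18.2 ± 3.26 CPM (log2 change 0.23, SE 0.19).

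**Figure D4:**
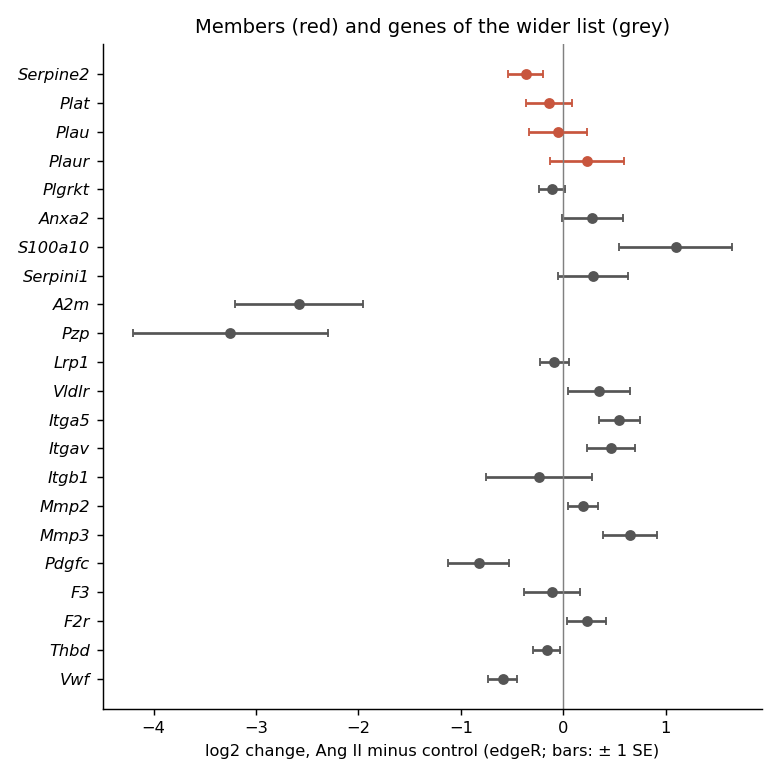
Log2 change (Ang II minus control, edgeR, x axis) with ± 1 SE for the 4 members in red and 18 genes of the wider list in grey. Among the genes plotted, A2m and Pzp lie farthest to the left, S100a10 farthest to the right, and the 4 members between -0.37 and 0.23. Of the 22 genes, 0 passed the adjusted threshold. Serpind1 (log2 change -4.15) and Fpr1 (0 counts in each Ang II library), also of the wider list, are not plotted.

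How small a difference these hearts could show was limited. Data simulated with the fitted spread of each gene gave edgeR calls for 1 of 100 genes changed 2-fold and 55 of 100 changed 4-fold. The changed genes all had a mean above 1 CPM. Genes were drawn independently, so a departure of a whole library, as in Ang II replicate 1, was not simulated. The 95% intervals of the members reach from a log2 change of -0.78 for Serpine2 to 1.09 for Plaur, so changes within these bounds are not shown to be absent. These bounds are not a limit of detection, since the simulation also missed many genes changed 4-fold.

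**Figure D5:**
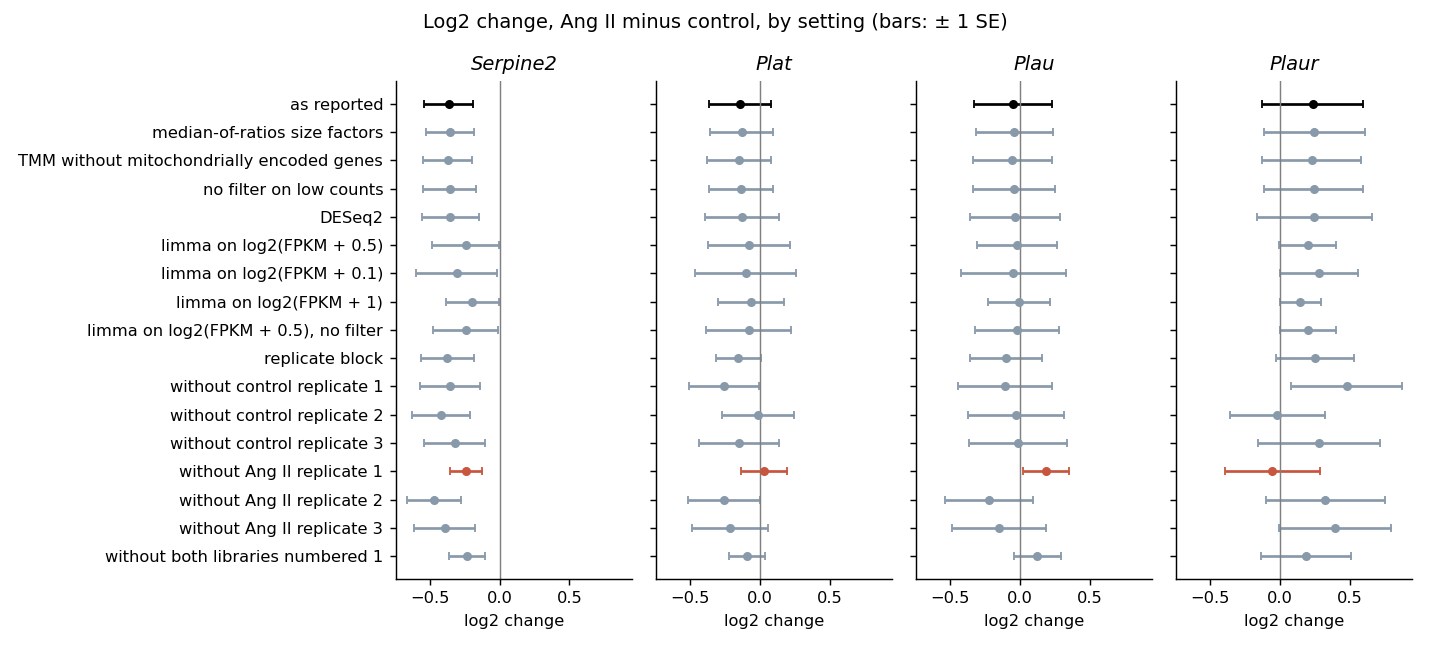
Log2 change (Ang II minus control, x axis) of each member with ± 1 SE under the reported fit (black), without Ang II replicate 1 (red) and under the other 15 settings (grey blue). Serpine2 lies below 0 in all 17 settings shown, from -0.47 to -0.19, whereas Plat, Plau and Plaur cross 0 without Ang II replicate 1.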

How the data were processed

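The samples were 6 mouse hearts, 3 control and 3 given Ang II, with 1 poly(A) library each; per the labels' protocols, total RNA had an integrity number above 7 and inserts were 300 ± 50 bp. The tools listed, with no roles, are HISAT2 2.0, StringTie 1.3.0 and Bowtie 0.12.2, per the submitters' processing notes. Those notes list mm8 as the build. However, 86.9% of 55141 gene IDs found in GENCODE M21, 3 of the 4 members among them, had exactly its GRCm38 positions (Serpine2 reaches further upstream in M21), so GRCm38 is the build given. Strandedness is not given in the sources used here.

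The authors deposited FPKM values, with 0.0001 standing for 0, and estimated counts as whole numbers per gene. Gene tests on the estimated counts used edgeR 4.0.16 in R 4.3.3: filterByExpr, TMM (trimmed mean of M-values) scaling and the two-sided quasi-likelihood test, with a Benjamini-Hochberg threshold of 0.05. Such estimates are not raw counts, and the fit treats them as if they were. Standard errors came from the log2 change and the test statistic, and intervals are 95%. DESeq2 1.42.0 and limma 3.58.1 on log2(FPKM + 0.5), keeping genes that reached 0.5 FPKM in 3 libraries, were run as alternatives, with other scalings, filters, pseudocounts of 0.1 and 1, a replicate block and each library left out. The edgeR step was tested on simulated data over 16759 genes, with 2 false calls beside 1 true call at 2-fold and 55 at 4-fold. No label says that hearts came from separate litters or experiments, so p-values measure the spread between these animals. Libraries of 1 group differed beyond counting error (chi-square per degree of freedom of 34.1 to 483), so none was a duplicate.

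Members and gene lists were chosen with earlier results of these data known. Genes named are the 4 members, genes of the wider list and, for each member, the 3 most similar genes; predicted and mitochondrially encoded genes were left out of that search. The 18 wider-list genes plotted were chosen after their values were seen. Promoter sequences are RefSeq's, on GRCm38.p6. Plots used matplotlib 3.10.9 (Python 3.11.15).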

Additional observations from a re-analysis of the deposited data

How the results depend on the processing

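The number of genes past the threshold, 6 as reported, was 12 with no filter on low counts, 276 with DESeq2, 3 with limma on log2(FPKM + 0.5), 2 with a pseudocount of 0.1, 3 with a pseudocount of 1 and 1 with limma and no filter. It was 48 without both libraries numbered 1, an alternative chosen after seeing the data, and ran from 0 to 129 when each library was left out in turn. With the replicate number as a block it was 0, with 1104 genes at an unadjusted p under 0.05. The numbers were not taken to pair the hearts: deviations of same-numbered libraries correlated at 0.139, 0.171 and -0.0598, and control replicate 3 did not correlate best with its own number. None of the 4 members passed in any of these settings. Serpine2 kept its sign in all of them, from -0.47 to -0.19 on the log2 scale. Leaving out each library in turn gave -0.26 to 0.029 for Plat, -0.22 to 0.19 for Plau, -0.054 to 0.48 for Plaur, -0.13 to 0.46 for Anxa2, -0.16 to 0.0031 for Lrp1, -0.62 to 0.19 for Itgb1 and -0.31 to 0.12 for F3. The sign turned without Ang II replicate 1 for Plat, Plau, Plaur, Anxa2, Itgb1 and F3, and without control replicate 2 for Plaur (-0.018), Lrp1 (0.0031) and F3 (0.0009). Without both libraries numbered 1, Plau stood at 0.12, Anxa2 at -0.085, Itgb1 at 0.11 and F3 at 0.019, with the sign turned in each. By DESeq2 A2m, Pzp and Vwf passed. Where a library was left out, the arm of 2 shares its spread with the other group. The cause of these differences between settings was not tested. Among the members, Plau and Plaur had the fewest counts, at 92 to 284 and 109 to 189 a library. The part of depth in their spread was not tested.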
